A study of Mus musculus with 18 samples.

Results

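Cholesterol synthesis and its control by the transcription factor SREBP2 were followed through 26 genes, which were given by name, with no measured value in the rule. The genes were, however, chosen with earlier results of these data known. All 26 symbols were matched to Ensembl genes among the 53465 genes counted in each library, and 25 had enough counts to be tested in every comparison. The list holds 6 enzymes of the early mevalonate pathway, 3 enzymes that make prenyl diphosphates and squalene, 11 enzymes of the later sterol steps, 4 regulators of SREBP2, and 2 genes of sterol transport and receptor turnover.

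RNA was sequenced from skeletal muscle (SKM), white adipose tissue (WAT) and brown adipose tissue (BAT) of wild-type C57BL/6J mice, an inbred laboratory strain. One set of mice was given quercetin, a plant flavonol, at 0.125 mg/kg by gavage in 100 µL of PBS with 10% PEG400, and the controls got the same vehicle without quercetin. With 3 tissues and both treatments there were 6 groups of 3 libraries, and all mice, controls included, received PEG400. The series text calls the treatment long and the dose low. Male sex and a start at 14 months are stated for the survival experiment. Age, sex, length of treatment and white fat depot of the sequenced mice are not stated in the labels. Nor do the labels say that libraries of a group came from separate mice, so p-values cover only library-to-library spread, which may be technical.

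Animal cells build cholesterol from acetyl-CoA through mevalonate, isoprenoid diphosphates, squalene and lanosterol. SREBP2, encoded by Srebf2, is made as a membrane protein of the endoplasmic reticulum and is held there by SCAP and the INSIG proteins while sterols are plentiful. When sterols fall, SCAP carries it to the Golgi, where it is cut, and the released part enters the nucleus and switches on most genes of the pathway and Insig1, so that the genes often move as a block. Adipocytes keep a large pool of free cholesterol at their lipid droplets, and brown fat also makes fatty acids under the related factor SREBP1c.

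Depth was 8436308 to 12311345 gene counts a library, and the 26 genes together took 3950 to 25387 of them. Levels are given as CPM, the count scaled to a common library size, after TMM scaling over all 18 libraries. Sets of 10 marker genes were summarised as the mean log2(CPM + 0.5). Skeletal muscle markers lay at 10.82 to 12.04 in SKM. Brown adipocyte markers lay at 5.76 in BAT quercetin 3 and at 7.94 to 8.51 in the other 5 BAT libraries. In WAT they reached at most 2.60. Of these markers Ucp1 stood at 893.9 CPM in BAT quercetin 3, against 3735 to 4745 CPM in the other BAT libraries. Adipocyte markers lay at 8.18 to 10.18 in 5 WAT libraries but at 4.76 in WAT vehicle 2. In 4 WAT libraries B and T cell markers lay at 6.76 to 8.19, against 0.17 in WAT vehicle 1 and 1.3 in WAT quercetin 2, and the B cell marker Ms4a1 was at 0 in WAT vehicle 1. These last WAT libraries also come from another flow cell than the other 4, as does SKM quercetin 3 in muscle. Muscle markers reached 9.97 in BAT quercetin 3, and lay at 6.79 in BAT vehicle 1, 6.38 in BAT vehicle 3 and 5.57 in WAT vehicle 2, against at most 2.04 in the other 5 WAT libraries. SKM vehicle 3 and SKM quercetin 2 had adipocyte markers at 8.74 and 7.80 against 3.75 to 5.39 in the other 4 muscle libraries. SKM quercetin 2 also had brown adipocyte markers at 5.45, against 2.71 to 3.35 in the other muscle libraries, and the seminal vesicle genes Svs5 and Svs4 at 12350 and 5770 CPM. In BAT quercetin 1 the liver genes Alb and Ttr stood at 72.97 and 9.90 CPM, against at most 7.11 and 0.105 CPM in the other 5 BAT libraries. What part these mixtures play in the results was not tested. In bulk tissue, fewer cells of a type and less RNA per cell cannot be told apart.

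Promoters of the pathway are known for short sterol regulatory elements that SREBP2 binds next to sites of NF-Y and Sp1, so the windows around the transcription starts were searched. RefSeq (GRCm38.p6) gave 28 windows of 300 bases, from 250 before to 50 after the start, for 22 of the 26 genes. Fdps, Fdft1, Sqle and Stard4 had no entry. The search covered both strands for CACNCCAC (a sterol regulatory element core), CCAAT (the NF-Y box), GGGCGG (the Sp1 box) and CACGTG (an E-box), counting each motif by itself, so that overlapping matches of different motifs each counted. Stretches of 200 bases that end just before the start are shown for 7 genes, picked after their values were seen. Hmgcs1, Acat2 and Insig1 are shown because each holds the sterol element core. Nsdhl and Sc5d are shown because they had the smallest p-values with quercetin in WAT, and Srebf2 and Lbr because they went against most of the pathway between the fat tissues. Capitals mark every match of the 4 motifs that lies wholly inside the stretch, 5′ to 3′ on the gene's own strand. A GGGCGG match of Sc5d that runs past the end of its stretch is not marked.
Hmgcs1: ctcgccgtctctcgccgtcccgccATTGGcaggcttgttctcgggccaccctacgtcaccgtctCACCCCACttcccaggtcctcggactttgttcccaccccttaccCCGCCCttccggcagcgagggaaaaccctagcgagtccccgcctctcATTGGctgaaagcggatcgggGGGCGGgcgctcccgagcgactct
Acat2: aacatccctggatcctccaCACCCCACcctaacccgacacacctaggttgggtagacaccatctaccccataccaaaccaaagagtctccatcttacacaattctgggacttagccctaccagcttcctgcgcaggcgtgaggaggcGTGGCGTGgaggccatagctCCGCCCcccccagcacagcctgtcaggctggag
Insig1: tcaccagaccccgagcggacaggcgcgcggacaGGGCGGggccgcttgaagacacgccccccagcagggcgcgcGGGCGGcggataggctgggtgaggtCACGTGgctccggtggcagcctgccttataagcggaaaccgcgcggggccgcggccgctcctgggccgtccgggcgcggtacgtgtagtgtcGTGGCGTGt
Nsdhl: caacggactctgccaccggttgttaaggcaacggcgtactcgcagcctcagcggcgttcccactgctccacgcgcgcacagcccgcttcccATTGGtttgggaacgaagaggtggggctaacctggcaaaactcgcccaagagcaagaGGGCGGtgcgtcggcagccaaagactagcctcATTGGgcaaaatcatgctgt
Sc5d: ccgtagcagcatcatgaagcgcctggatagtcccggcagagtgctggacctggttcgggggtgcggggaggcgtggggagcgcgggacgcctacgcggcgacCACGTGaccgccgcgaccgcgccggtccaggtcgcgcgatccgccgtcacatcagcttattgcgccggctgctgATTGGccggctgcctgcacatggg
Srebf2: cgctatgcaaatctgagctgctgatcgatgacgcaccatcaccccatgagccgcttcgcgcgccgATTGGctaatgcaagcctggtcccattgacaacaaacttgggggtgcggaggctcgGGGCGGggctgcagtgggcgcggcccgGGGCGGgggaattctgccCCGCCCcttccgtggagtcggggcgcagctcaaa
Lbr: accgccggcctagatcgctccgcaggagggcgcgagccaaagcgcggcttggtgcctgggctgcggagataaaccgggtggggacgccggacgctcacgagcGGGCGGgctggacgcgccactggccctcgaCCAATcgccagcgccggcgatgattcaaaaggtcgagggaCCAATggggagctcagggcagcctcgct

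In GRCm38.p6 these stretches lie at chr13:119690151-119690350 on the plus strand (Hmgcs1), chr17:12960726-12960925 on the minus strand (Acat2), chr5:28071212-28071411 on the plus strand (Insig1), chrX:72918321-72918520 on the plus strand (Nsdhl), chr9:42264301-42264500 on the minus strand (Sc5d), chr15:82147069-82147268 on the plus strand (Srebf2) and chr1:181842402-181842601 on the minus strand (Lbr). The sterol element core was present in the windows of 3 of 22 pathway genes, against 7.12% of the 27025 genes with a window. CCAAT was found for 20 of 22, against 41.06% of all genes, and GGGCGG also for 20 of 22, against 38.2%. Both boxes stood in 1 window for 17 of 22 genes, against 14.48% of all genes. CACGTG was found for 5 of 22, against 8.09%. The windows of the pathway were also richer in G and C, with a median of 61.8% against 52.7% over all windows. A match describes letters and is no evidence of binding, and a window without one says only that these letters are not in it.

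The first question was where the pathway is expressed. To set different genes side by side, levels were divided by kilobases of exon. That length joins all annotated exons of a gene and can exceed the expressed transcript, so the order of genes is rough. The highest level in BAT was that of Insig1, the sterol sensor partner of SCAP and a target of SREBP2, at 133.5 ± 160.5 CPM per kb (SD, n = 6). Acat2, which makes acetoacetyl-CoA at the entry of the pathway, followed at 73.2 ± 42.1 CPM per kb, and Pmvk, the phosphomevalonate kinase, at 61.4 ± 42.1 CPM per kb. These top levels in BAT lie within each other's spread. In WAT the order was led by Mylip, a ubiquitin ligase that marks lipoprotein receptors for destruction, at 36.2 ± 4.37 CPM per kb, then Insig1 at 29.1 ± 29.3 CPM per kb. In SKM it was led by Fdft1, squalene synthase, at 33.2 ± 44.8 CPM per kb, a mean set by 1 library, then by Insig2, the second INSIG, at 19.4 ± 4.33 CPM per kb and Mylip at 17.0 ± 4.92 CPM per kb. Here too the neighbours differ by less than their spread. The lowest listed gene in every tissue was Fdps, farnesyl diphosphate synthase, with 0 to 15 counts a library, too few for a test. On the annotation used here 26.7% of its exon bases are shared with the same-strand gene Gm43738, which was listed at 0 counts in all 18 libraries, and the cause of the low Fdps count was not tested.

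**Figure D1:**
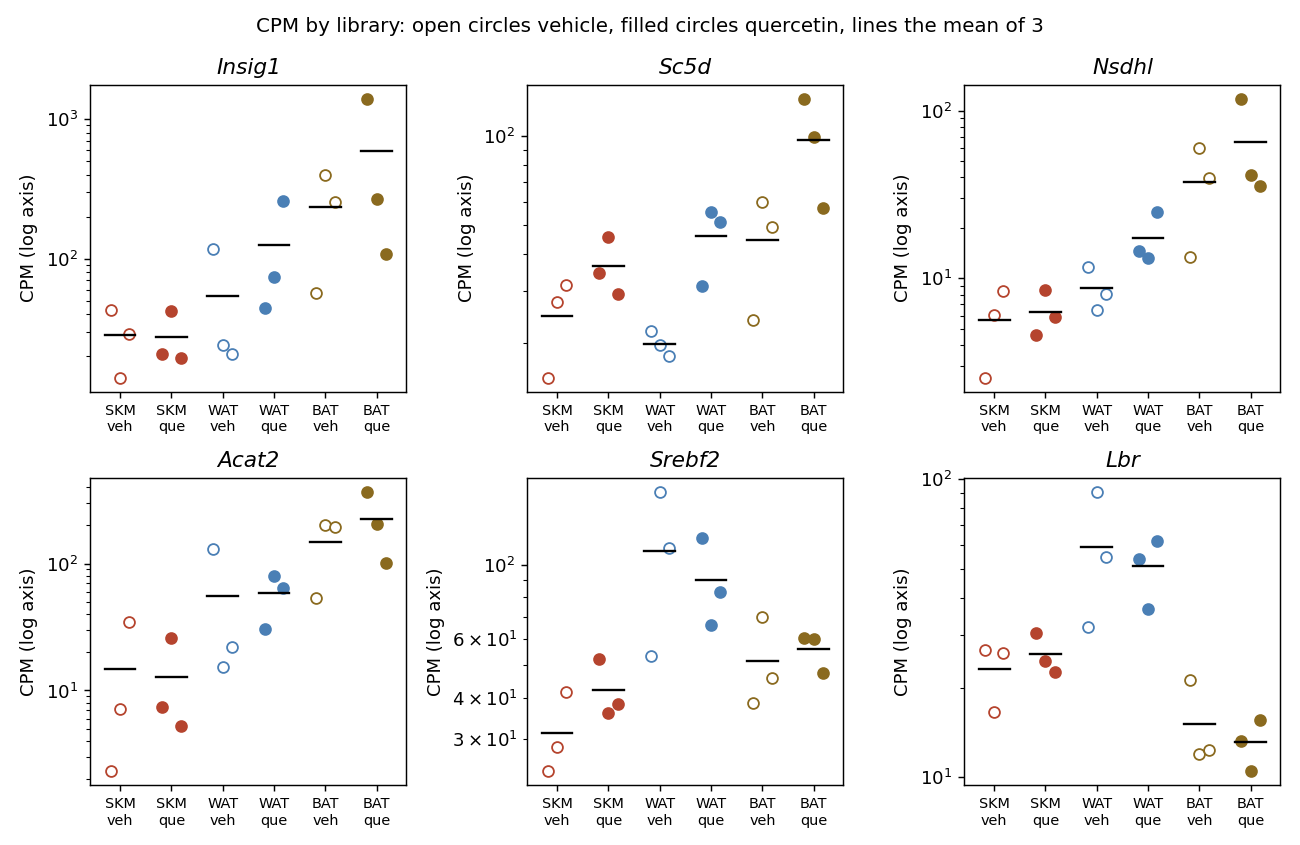
CPM (log axis) of Insig1, Sc5d, Nsdhl, Acat2, Srebf2 and Lbr by tissue and treatment, with open circles for vehicle libraries, filled circles for quercetin libraries and lines for the mean of 3. Insig1, Acat2 and Nsdhl reach their highest values in BAT, Lbr and Srebf2 theirs in WAT, and BAT quercetin 1 stands alone at 1395 CPM for Insig1.

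More genes of the pathway were called higher than lower in BAT against each of the other tissues, among them Sqle, Lss, Nsdhl and Pmvk in both comparisons. With edgeR's quasi-likelihood test over 18 libraries, 11 of the 25 tested genes were called higher in BAT than in WAT, where 18.3% of all 16388 tested genes were, and 3 were called lower, where 22% of all genes were. Against SKM, 14 were higher in BAT (13.9% of all genes) and 2 were lower (13.3%). Between WAT and SKM, 12 were higher in WAT (28.6%) and 3 were lower (21.7%). The median log2 fold change of the 25 genes was 0.79 for BAT against WAT, 1.13 for BAT against SKM and 0.91 for WAT against SKM, beside -0.13, 0.03 and 0.24 over all genes tested. The 3 tissue comparisons share libraries and are not independent of each other. Without SKM vehicle 3, SKM quercetin 2, WAT vehicle 2 and BAT quercetin 3, 4 libraries with markers of another tissue but not the only ones, 10 were higher and 1 lower in BAT than in WAT, 14 and 1 in BAT than in SKM, and 12 and 2 in WAT than in SKM.

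**Figure D2:**
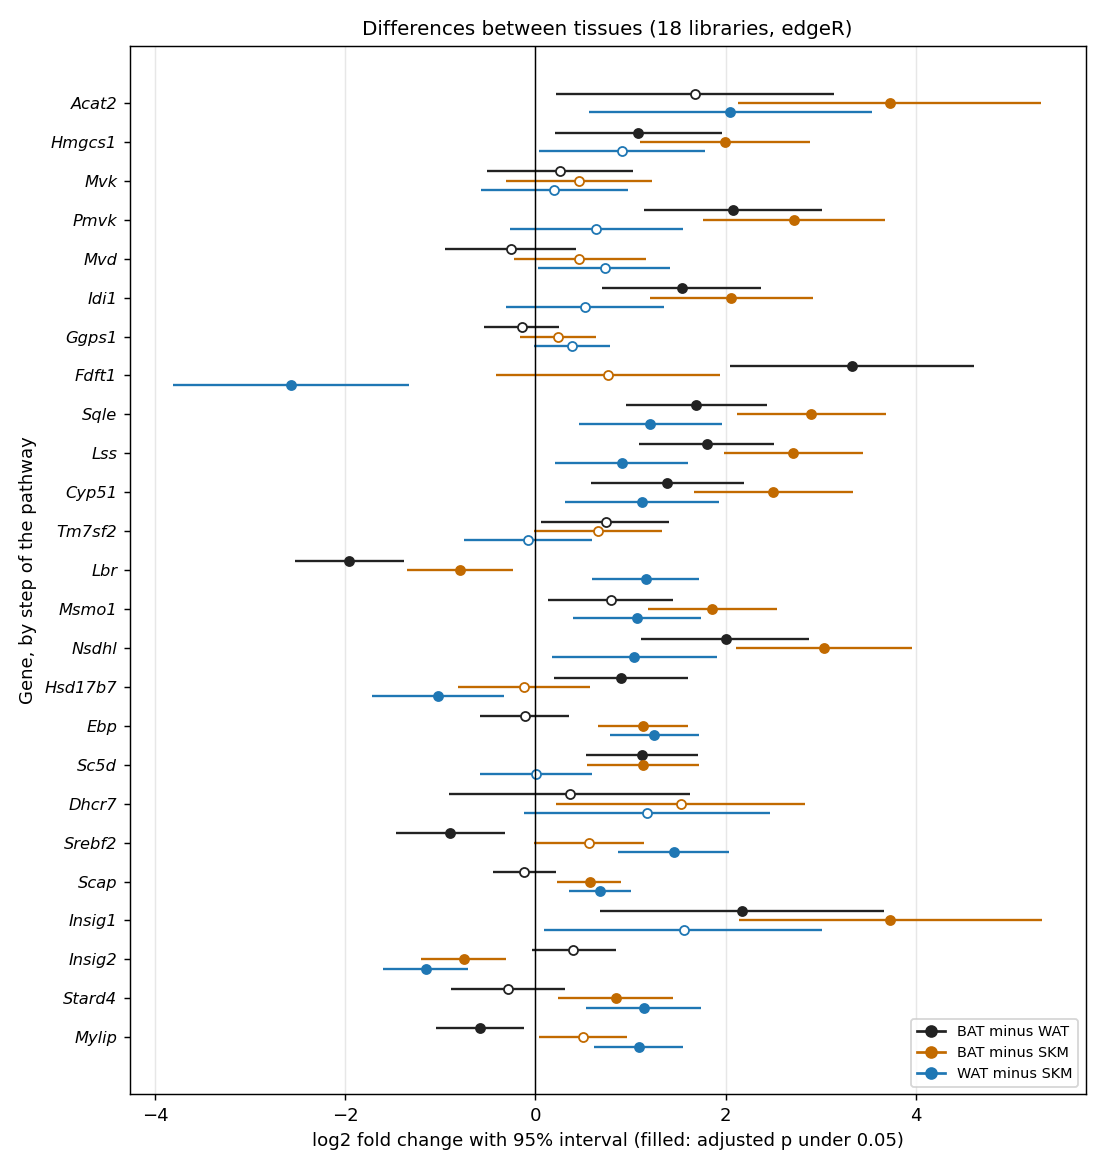
Log2 fold change between tissues with its 95% interval for the 25 tested genes, in pathway order, from edgeR on 18 libraries. Filled points are called at an adjusted p under 0.05, and for BAT against the other tissues most lie on the side of BAT. Lbr, Srebf2 and Mylip lie on the side of WAT against BAT. Insig2 lies on the side of SKM against both fat tissues, and Lbr on the side of SKM against BAT.

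Among the early mevalonate enzymes, Pmvk had the smallest p for BAT against each of the other tissues. Its level ran from 9.20 to 23.3 CPM in SKM (median 15), from 16.3 to 35.3 CPM in WAT (median 24.3) and from 16.4 to 219.6 CPM in BAT (median 82.6). In BAT vehicle 1 Pmvk stood at 16.4 CPM, inside the ranges of SKM and WAT, and the other 5 BAT libraries stood above every library of the other tissues. The log2 fold change of Pmvk was 2.08 ± 0.44 (SE) for BAT against WAT (edgeR adjusted p = 0.0021) and 2.72 ± 0.45 for BAT against SKM (adjusted p = 0.00062). Idi1, the isomerase that makes dimethylallyl diphosphate, ran from 2.79 to 15.1 CPM in SKM, 9.85 to 20.6 CPM in WAT and 16.8 to 58.6 CPM in BAT. Its BAT levels lay above all SKM libraries, and its log2 fold change was 1.54 ± 0.39 against WAT (edgeR adjusted p = 0.00684) and 2.06 ± 0.40 against SKM (adjusted p = 0.00176).

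Acat2 and Hmgcs1, the HMG-CoA synthase of the cytosol, were both called higher in BAT than in SKM, and Hmgcs1 also higher in BAT than in WAT. Acat2 lay at 53.6 to 365.1 CPM in BAT (median 196.8), 15.4 to 130.4 CPM in WAT (median 47.0) and 2.33 to 34.8 CPM in SKM (median 7.26). Hmgcs1 lay at 42.9 to 149.5 CPM in BAT, 20.4 to 90.9 CPM in WAT and 16.5 to 32.8 CPM in SKM. For both genes every BAT library stood above every SKM library, while BAT and WAT overlapped. The highest WAT library of both was WAT vehicle 1, which lacked B and T cell markers, and the lowest was WAT vehicle 2. Acat2 has a near copy, Acat3, to which 3 to 212 counts a library were assigned, so that its reads may be split between them. Mvk, mevalonate kinase, spanned 10.1 to 32.0 CPM in BAT, 8.26 to 28.4 CPM in WAT and 3.26 to 19.6 CPM in SKM, and Mvd, mevalonate diphosphate decarboxylase, 6.72 to 44.1, 13.0 to 23.6 and 6.64 to 14.8 CPM in the same order. Neither Mvk nor Mvd was called in any of the 3 tissue comparisons, and their tissue ranges overlapped.

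Fdft1, which commits farnesyl diphosphate to sterols, had the largest log2 fold change of the 25 genes between the fat tissues. It lay at 13.0 to 29.1 CPM in WAT (median 20.3) and at 48.4 to 414.3 CPM in BAT (median 206.4), with no overlap. Its log2 fold change for BAT against WAT was 3.33 ± 0.60 (edgeR adjusted p = 0.000755). In SKM 5 libraries lay at 49.2 to 87.4 CPM and SKM vehicle 1 at 526.2 CPM, all above WAT, with a log2 fold change of -2.57 ± 0.58 for WAT against SKM (edgeR adjusted p = 0.0022), or -1.61 without SKM vehicle 1. Fdft1 shares 18.3% of its exon bases with Ctsb on the opposite strand, and the strand setting of the counting is not stated. Ctsb had 3601 counts in SKM vehicle 1, the lowest of all libraries. Whether reads of Ctsb were counted for Fdft1 was not tested. Ggps1, which makes the geranylgeranyl diphosphate used to anchor proteins in membranes, was nearly level, at 14.5 to 24.2 CPM in SKM, 19.0 to 32.5 CPM in WAT and 20.4 to 28.0 CPM in BAT, and was not called in any tissue comparison.

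Of the later sterol steps, 6 of 11 genes were called higher and 1 lower in BAT than in WAT, and 7 higher and 1 lower in BAT than in SKM. Sqle, squalene epoxidase, a rate-limiting step of the sterol branch, lay at 1.63 to 6.69 CPM in SKM (median 4.08), 5.78 to 12.3 CPM in WAT (median 10.2) and 14.1 to 51.9 CPM in BAT (median 25.3). BAT did not overlap with either other tissue. The log2 fold change of Sqle was 1.69 ± 0.35 for BAT against WAT (edgeR adjusted p = 0.00179) and 2.90 ± 0.37 for BAT against SKM (adjusted p = 9.4e-05), the smallest p among the 25 genes in the latter comparison. Lss, which closes the sterol rings to lanosterol, had the same order: 4.04 to 11.8 CPM in SKM, 9.85 to 17.6 CPM in WAT and 21.9 to 105.9 CPM in BAT. Its log2 fold change was 1.80 ± 0.33 against WAT (edgeR adjusted p = 0.00086) and 2.71 ± 0.35 against SKM (adjusted p = 9.43e-05).

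Nsdhl, a sterol dehydrogenase of the C4 demethylation complex, lay at 2.56 to 8.55 CPM in SKM, 6.51 to 24.7 CPM in WAT and 13.3 to 117.4 CPM in BAT. Its lowest BAT library was BAT vehicle 1, which overlapped with WAT. For Nsdhl the log2 fold change was 2.0 ± 0.42 against WAT (edgeR adjusted p = 0.00185) and 3.04 ± 0.44 against SKM (adjusted p = 0.000223). Msmo1, the methyl sterol oxidase of the same complex, ran from 2.21 to 7.59 CPM in SKM, 5.56 to 15.6 CPM in WAT and 9.02 to 25.0 CPM in BAT, with a log2 fold change of 1.86 ± 0.32 for BAT against SKM (edgeR adjusted p = 0.000761). Cyp51, the lanosterol demethylase, ran from 2.91 to 11.9 CPM in SKM, 12.9 to 24.7 CPM in WAT and 15.6 to 88.7 CPM in BAT. For Cyp51 the log2 fold change of BAT against SKM was 2.50 ± 0.39 (edgeR adjusted p = 0.000415), and neither fat tissue overlapped with SKM.

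Ebp, the sterol isomerase known as emopamil binding protein, was the tested gene of the pathway with the smallest p between WAT and SKM. It lay at 8.03 to 12.9 CPM in SKM, 20.8 to 32.2 CPM in WAT and 11.7 to 33.9 CPM in BAT. For Ebp the log2 fold change was 1.25 ± 0.22 for WAT against SKM (edgeR adjusted p = 0.000376) and 1.13 ± 0.22 for BAT against SKM (adjusted p = 0.00173). Sc5d, the lathosterol desaturase, lay at 15.3 to 45.6 CPM in SKM, 18 to 55.3 CPM in WAT and 24.0 to 133.6 CPM in BAT, ranges that overlap. Its log2 fold change was 1.12 ± 0.28 for BAT against WAT (edgeR adjusted p = 0.00562). Hsd17b7, the keto-reductase of C4 demethylation, ran from 6.40 to 19.4 CPM in SKM, 4.59 to 9.38 CPM in WAT and 5.96 to 23.8 CPM in BAT, and WAT was called lower than both other tissues. Tm7sf2, a sterol C14 reductase, spanned 3.61 to 8.26, 4.02 to 9.34 and 3.61 to 17.4 CPM in SKM, WAT and BAT, and Dhcr7, which makes cholesterol from 7-dehydrocholesterol, 0.233 to 7.46, 2.62 to 19.8 and 5.41 to 53.0 CPM. Neither Tm7sf2 nor Dhcr7 was called in a tissue comparison. Some exon bases lie in other genes too, 12.1% for Tm7sf2 (with Vps51), 12.1% for Hmgcs1, 10.7% for Lbr (with Dnah14) and 13.2% for Scap, so their counts are less certain.

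Lbr, the lamin B receptor, which carries the same C14 reductase activity in the nuclear membrane, went the other way. It lay at 10.5 to 21.2 CPM in BAT (median 12.8), 16.6 to 30.5 CPM in SKM (median 25.3) and 31.9 to 90.3 CPM in WAT (median 54.5). All 6 WAT libraries stood above all libraries of the other tissues. For Lbr the log2 fold change was -1.96 ± 0.27 for BAT against WAT (edgeR adjusted p = 0.000104), the smallest p of the 25 genes there, and 1.16 ± 0.26 for WAT against SKM (adjusted p = 0.00209). The lowest WAT values were 31.9 CPM in vehicle 1 and 36.6 CPM in quercetin 2, the libraries nearly without B and T cell markers, against 54.0 to 90.3 CPM in the other 4 WAT libraries. The part of lymphocytes in the WAT level of Lbr was not tested beyond these values.

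The regulators did not share 1 tissue order. Srebf2 lay at 24.1 to 52.2 CPM in SKM (median 37.1), 38.6 to 69.8 CPM in BAT (median 53.8) and 53.3 to 165.7 CPM in WAT (median 97.7). It was higher in WAT than in SKM by 1.46 ± 0.27 on the log2 scale (edgeR adjusted p = 0.000586) and lower in BAT than in WAT, with -0.90 ± 0.27 (adjusted p = 0.0164). The BAT against SKM value of 0.56 ± 0.27 was not called. WAT vehicle 1 and quercetin 2 had the lowest Srebf2 levels of WAT, 53.3 and 66.3 CPM, inside the BAT range, and the other 4 WAT libraries lay at 83.2 to 165.7 CPM, above all BAT libraries. Both low libraries nearly lack B and T cell markers, whose part in the Srebf2 level was not tested. Without SKM vehicle 3, SKM quercetin 2, WAT vehicle 2 and BAT quercetin 3, Srebf2 was not called between BAT and WAT, with a log2 fold change of -0.64 (edgeR adjusted p = 0.0952). It also missed the threshold without WAT vehicle 2, at -0.68, and without WAT quercetin 1, at -0.74.

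Scap, the escort of SREBP2, was even within tissues, at 29.8 to 40.6 CPM in SKM, 52.6 to 63.7 CPM in WAT and 42.1 to 63.8 CPM in BAT. Every WAT and BAT library stood above every SKM library, and WAT exceeded SKM by 0.68 ± 0.16 on the log2 scale (edgeR adjusted p = 0.00234). Insig1 spread most. It lay at 14.1 to 43.0 CPM in SKM (median 24.7), 20.9 to 259.9 CPM in WAT (median 59.0) and 56.8 to 1395 CPM in BAT (median 261.3). The log2 fold change of Insig1 was 3.73 ± 0.75 for BAT against SKM (edgeR adjusted p = 0.00212), 2.17 ± 0.70 for BAT against WAT (adjusted p = 0.0222) and 1.56 ± 0.69 for WAT against SKM (adjusted p = 0.0714, not called). By DESeq2 the last was called, at 1.54 (adjusted p = 0.036). Leaving out BAT quercetin 1 took the BAT against WAT value to 1.38 (edgeR adjusted p = 0.102), and the call was also lost without any 1 of WAT vehicle 2, WAT vehicle 3, WAT quercetin 1 or BAT vehicle 2, at 1.88 to 2.01. Insig2 was highest in SKM, with 48.3 to 90.9 CPM in SKM, 34.9 to 43.2 CPM in BAT and 22.0 to 47.6 CPM in WAT. No library of either fat tissue reached the SKM range for Insig2, whose log2 fold change was -1.15 ± 0.21 for WAT against SKM (edgeR adjusted p = 0.000468).

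The remaining genes handle sterols and receptors after synthesis. Stard4, a carrier that moves cholesterol between membranes, lay at 4.08 to 7.93 CPM in SKM, 9.59 to 17.7 CPM in WAT and 6.69 to 17.1 CPM in BAT. WAT did not overlap with SKM, and the log2 fold change was 1.14 ± 0.29 (edgeR adjusted p = 0.00422). Mylip, which unlike the SREBP2 targets is induced by way of the sterol-sensing LXR receptors, lay at 35.6 to 81.6 CPM in SKM, 98.7 to 137.7 CPM in WAT and 50.4 to 95.6 CPM in BAT. WAT stood above both other tissues in every library, with a log2 fold change of 1.09 ± 0.22 against SKM (edgeR adjusted p = 0.000914).

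**Figure D3:**
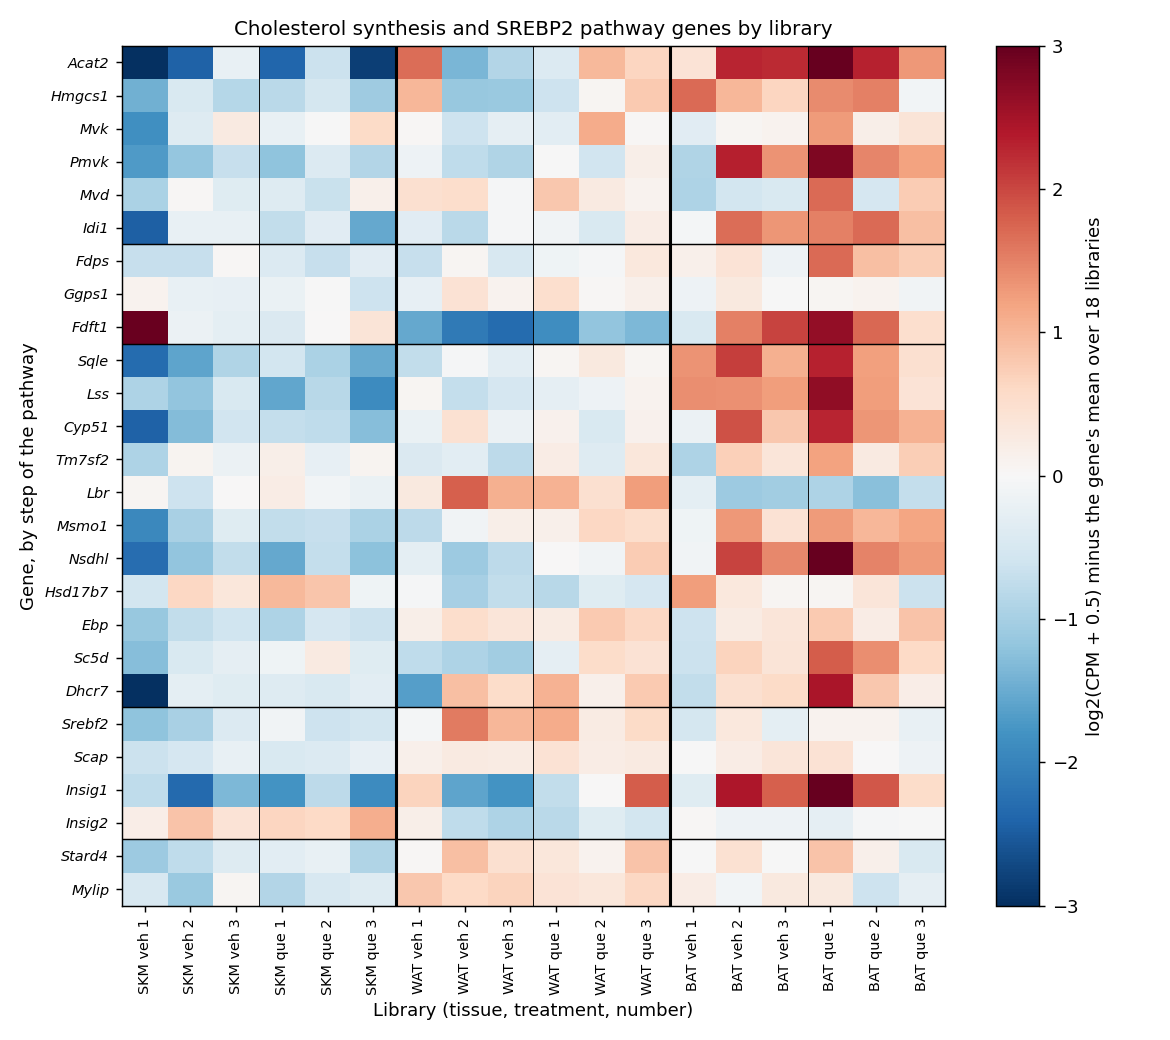
Each gene's log2(CPM + 0.5) in each of the 18 libraries as the difference from that gene's mean, with genes by role and libraries by tissue and treatment. Red marks libraries above the gene's mean and blue those below, and BAT quercetin 1 is the reddest column, with Insig1 at 1395 CPM, while SKM vehicle 1 is the bluest for many genes, with Dhcr7 at 0.233 CPM.

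The second question was whether quercetin changed the pathway. Within each tissue no gene of the pathway and no gene at all was called by edgeR's quasi-likelihood test, so that 0% of the 13562 genes tested in SKM, 0% of 14919 in WAT and 0% of 13274 in BAT passed. The same held for the mean effect over the 3 tissues, with 0% of 16388 genes, and for the 3 differences of the effect between tissues, with 0% each. At an unadjusted p under 0.05 edgeR counted 406 genes in SKM, 122 in WAT, 241 in BAT and 898 for the mean, of which 0, 1, 2 and 3 belonged to the pathway. For the differences between tissues the counts were 231 for WAT minus SKM, 223 for BAT minus SKM and 173 for WAT minus BAT, with 0, 1 and 1 from the pathway. DESeq2 called 0 genes in SKM, 6 higher and 1 lower in WAT, 1 higher and 1 lower in BAT, 4 lower for the mean, and 7, 2 and 5 lower for the differences. With limma voom 0 genes were called in each, and neither tool called a gene of the pathway. Estimates were higher with quercetin for 18 of 25 pathway genes in SKM, 18 in WAT, 17 in BAT and 20 for the mean. Since genes of the pathway often move as a block, these counts are not made of separate observations. The median log2 fold change of the pathway was 0.12 in SKM, 0.20 in WAT, 0.50 in BAT and 0.14 for the mean, beside -0.03, -0.01, 0.05 and 0.02 over all genes tested. Without BAT quercetin 1 the BAT median was 0.05, and without BAT vehicle 1 it was 0.16. In SKM it was -0.03 without vehicle 1.

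**Figure D4:**
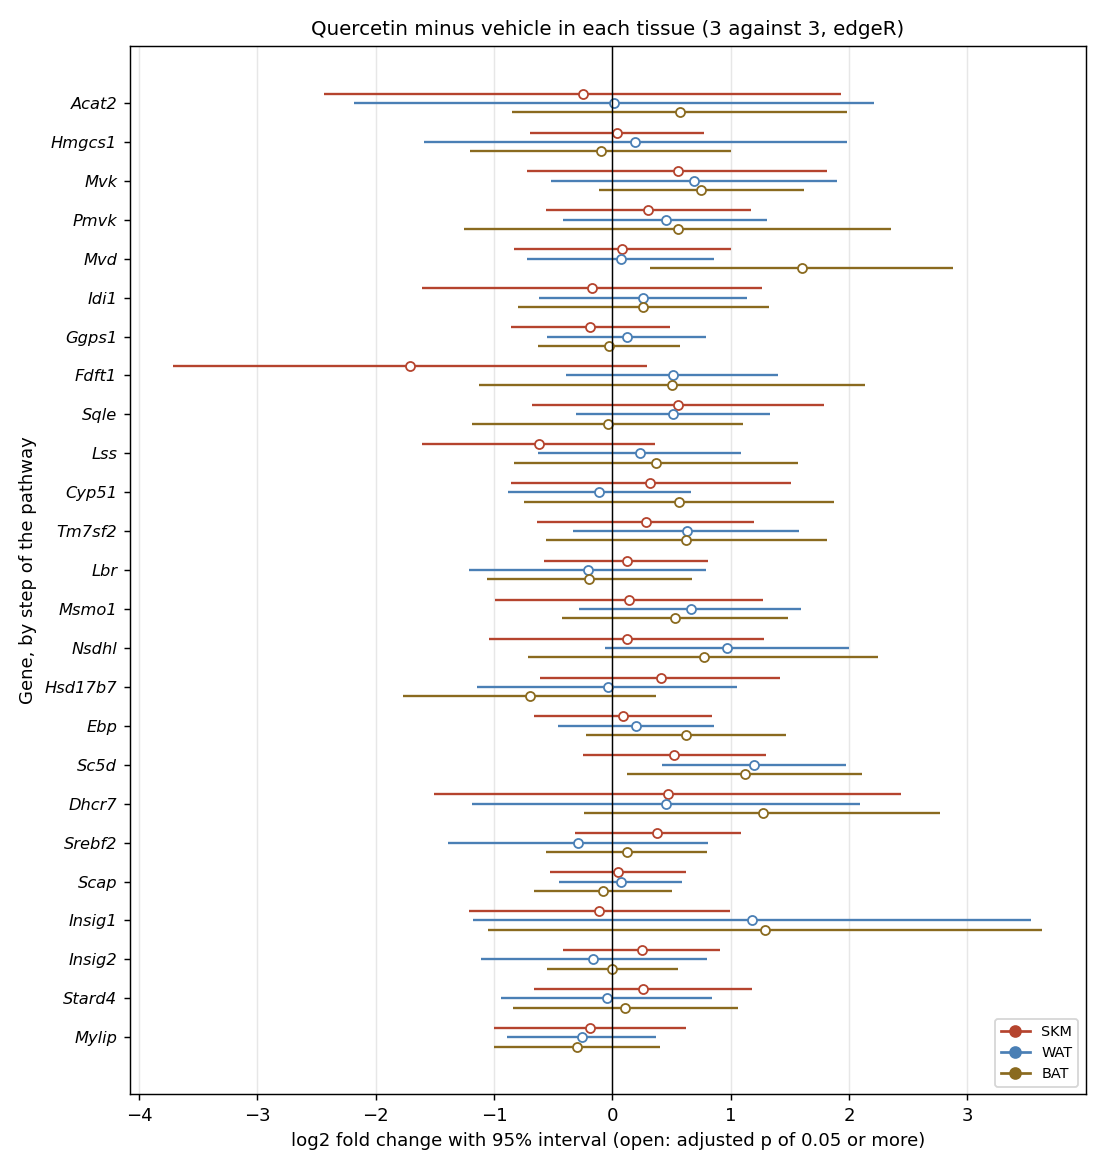
Log2 fold change of quercetin against vehicle with its 95% interval for the 25 tested genes in SKM, WAT and BAT, from edgeR on 3 against 3 libraries. All points are open, since none had an adjusted p under 0.05, and the interval of Sc5d runs from 0.42 to 1.97 in WAT and from 0.12 to 2.11 in BAT.

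Few pathway genes had groups that did not overlap. In WAT 3 of the 25 genes lay higher in all 3 quercetin libraries than in all 3 vehicle libraries, Sqle, Nsdhl and Sc5d, where 2.61% of all tested genes did so, and none lay lower, where 1.83% did. In BAT 1 tested gene did, Mvk, higher with quercetin, where 2.87% of all genes were higher and 3.32% lower. In SKM 0 did, where 5.85% of all genes were higher and 3.4% lower. A permutation test of 3 against 3 libraries cannot give an exact two-sided p below 0.1.

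Sc5d had the smallest p of the pathway in WAT and for the mean. In WAT it stood at 21.9, 19.7 and 18 CPM in vehicle libraries 1 to 3 and at 31.1, 55.3 and 51.1 CPM in the quercetin libraries. All quercetin libraries were above all vehicle libraries, with the largest gap in quercetin 2 and 3. Its log2 fold change was 1.20 ± 0.32 (edgeR adjusted p = 1) with a 95% interval of 0.42 to 1.97, and 1.09 among the 4 WAT libraries of the main flow cell. In BAT Sc5d stood at 24.0, 59.7 and 49.4 CPM with vehicle and at 133.6, 99.6 and 57.2 CPM with quercetin. There quercetin 3 fell between vehicle 2 and 3, and the log2 fold change was 1.12 ± 0.43 (edgeR adjusted p = 0.977). In SKM the values were 15.3, 27.4 and 31.3 CPM with vehicle and 34.4, 45.6 and 29.2 CPM with quercetin, which overlap, with 0.52 ± 0.34 (edgeR adjusted p = 0.91). For the mean of the tissues Sc5d gave 0.96 ± 0.23 with a 95% interval of 0.48 to 1.45. It ranked 3 of 16388 genes by p, and its edgeR adjusted p was 0.841. Leaving out any 1 library kept the value between 0.84 and 1.06, and without SKM vehicle 3, SKM quercetin 2, WAT vehicle 2 and BAT quercetin 3 it was 1.06, also not called.

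The other genes with the smallest p in WAT were also later sterol enzymes, apart from Fdft1. Nsdhl stood at 11.7, 6.51 and 8.05 CPM with vehicle and at 14.5, 13.2 and 24.7 CPM with quercetin, without overlap, and its log2 fold change was 0.97 ± 0.42 (edgeR adjusted p = 1). Sqle stood at 5.78, 9.77 and 7.97 CPM with vehicle and at 10.6, 12.3 and 10.6 CPM with quercetin, with 0.51 ± 0.34. Those values separate too, with vehicle 2 and quercetin 1 and 3 close to each other. Msmo1 gave 0.66 ± 0.39, Tm7sf2 0.63 ± 0.39 and Fdft1 0.51 ± 0.37, all on the log2 scale with an edgeR adjusted p of 1, and their groups overlapped.

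Insig1 in WAT was highest in quercetin 3. It stood at 117.4, 24.0 and 20.9 CPM with vehicle and at 44.0, 74.1 and 259.9 CPM with quercetin, and the groups overlapped, with a log2 fold change of 1.18 ± 0.97 (edgeR adjusted p = 1). Without quercetin 3 it was 0.09, and without vehicle 1 it was 2.52. Srebf2 stood at 53.3, 165.7 and 112.3 CPM with vehicle and at 120.7, 66.3 and 83.2 CPM with quercetin. Its low values belong to vehicle 1 and quercetin 2, 1 library of each group, and the log2 fold change was -0.29 ± 0.45 (edgeR adjusted p = 1).

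In BAT the estimates of Mvd, Mvk, Dhcr7 and Insig1 leaned on quercetin 1, the BAT library with the highest Alb (72.97 CPM), whose part in them was not tested. On the vehicle side, BAT vehicle 1 was the lowest BAT library for each of these genes. BAT quercetin 3 had the highest muscle markers of BAT (9.97) and the lowest brown adipocyte markers (5.76), whose part was not tested either. Mvd stood at 6.72, 8.81 and 9.44 CPM with vehicle and at 44.1, 9.21 and 22.8 CPM with quercetin. Quercetin 2 fell within the vehicle range, and the log2 fold change was 1.60 ± 0.55 (edgeR adjusted p = 0.977), or 0.98 without quercetin 1. Mvk stood at 10.1, 13.4 and 14.0 CPM with vehicle and at 32.0, 14.7 and 17.0 CPM with quercetin, and the groups did not overlap, with 0.75 ± 0.37, or 0.37 without quercetin 1. Dhcr7 stood at 5.41, 13.3 and 14.1 CPM with vehicle and at 53.0, 16.6 and 10.8 CPM with quercetin, with 1.27 ± 0.64, or 0.35 without quercetin 1. Ebp gave 0.62 ± 0.36 and Hsd17b7 -0.70 ± 0.45, the 1 negative value among the 6 smallest p. All had an edgeR adjusted p of 0.977. Fdps, untested, counted 4, 4 and 2 reads with vehicle and 15, 10 and 8 with quercetin, which do not overlap but are few.

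Insig1 in BAT rested on quercetin 1 as well, and vehicle 1 was its lowest library. Its levels were 56.8, 394.9 and 253.6 CPM with vehicle and 1395, 268.9 and 107.5 CPM with quercetin. Quercetin 1 stood far above the other 5 libraries, among which the groups overlapped. The log2 fold change was 1.29 ± 1.0 (edgeR adjusted p = 0.977) with all libraries and -0.31 without quercetin 1. In that library Insig1 alone made up 38.9% of the CPM of all 26 genes, against 7.05 to 22.4% in the other 5 BAT libraries. Srebf2 stood at 38.6, 69.8 and 45.8 CPM with vehicle and at 60.2, 60.0 and 47.5 CPM with quercetin, a log2 fold change of 0.12 ± 0.29 (edgeR adjusted p = 0.977).

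In SKM the smallest p belonged to Fdft1, on the strength of 1 vehicle library. It stood at 526.2, 58.5 and 54.3 CPM with vehicle and at 49.2, 66.8 and 87.4 CPM with quercetin. Apart from vehicle 1 the groups overlapped, and the log2 fold change of -1.71 ± 0.87 (edgeR adjusted p = 0.91) became 0.24 without it. SKM vehicle 1, so high for Fdft1, was low for many other pathway genes. Dhcr7 stood there at 0.233 CPM against 6.69 to 7.46 CPM in the other 5 muscle libraries. For Ggps1 and Insig1 it was the highest muscle library, at 24.2 and 43.0 CPM, though Insig1 in SKM quercetin 2 was close at 42.5 CPM. SKM vehicle 1 also differed in its markers. Its fibroblast markers lay at 2.85 against 6.52 to 7.49 in the other muscle libraries, and its macrophage markers at 2.91 against 4.69 to 6.02. Their part in the low values was not tested. Lss gave -0.62 ± 0.43, Sqle 0.55 ± 0.53 and Mvk 0.55 ± 0.55 on the log2 scale, all with overlapping groups. Srebf2 stood at 24.1, 28.4 and 41.7 CPM with vehicle and at 52.2, 36.0 and 38.1 CPM with quercetin, with 0.38 ± 0.31 (edgeR adjusted p = 0.91). Insig1 stood at 43.0, 14.1 and 28.7 CPM with vehicle and at 20.7, 42.5 and 19.4 CPM with quercetin, with -0.11 ± 0.48.

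For the mean over the tissues the next genes after Sc5d were Mvk with a log2 fold change of 0.68 ± 0.30 and Mvd with 0.60 ± 0.27, or 0.37 without BAT quercetin 1. Tm7sf2 gave 0.52 ± 0.26, Nsdhl 0.65 ± 0.33 and Msmo1 0.45 ± 0.25. Every one had an edgeR adjusted p of 0.841, as had Insig1 with 0.83 ± 0.55, or 0.26 without BAT quercetin 1. Srebf2, the factor itself, gave 0.08 ± 0.22 (edgeR adjusted p = 0.965) with a 95% interval of -0.38 to 0.55. The effect did not pass the test of a difference between tissues for any pathway gene. Mvd had the smallest p in both comparisons with BAT, 1.49 ± 0.66 for BAT minus SKM and -1.52 ± 0.65 for WAT minus BAT, or 0.84 and -0.86 without BAT quercetin 1. Fdft1 gave 2.17 ± 1.12 for WAT minus SKM and 2.17 ± 1.11 for BAT minus SKM, both against the SKM estimate that rests on vehicle 1. Hsd17b7 gave -1.13 ± 0.65 for BAT minus SKM and 0.67 ± 0.65 for WAT minus BAT, Ebp -0.40 ± 0.43 for WAT minus BAT, and Srebf2 -0.72 ± 0.54 and Lss 0.83 ± 0.66 for WAT minus SKM. All of these had an edgeR adjusted p of 1.

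The 26 genes were also summarised as 1 value a library. The mean log2(CPM + 0.5) of the list in BAT was 4.32, 5.21 and 4.92 with vehicle and 5.85, 5.08 and 4.75 with quercetin. In WAT it was 4.26, 4.15 and 4.03 with vehicle and 4.36, 4.44 and 4.71 with quercetin. Here the quercetin libraries all stood above the vehicle libraries, with quercetin 1 close to vehicle 1. In SKM it was 3.15, 3.65 and 4.03 with vehicle and 3.78, 4.0 and 3.68 with quercetin, which overlap. A list of 15 fatty acid synthesis genes ranked the 6 BAT libraries in the same order, from 6.47 in vehicle 1 to 9.95 in quercetin 1. It also ranked the 6 SKM libraries in the same order, from 4.12 in vehicle 1 to 6.53 in vehicle 3. In muscle the adipocyte markers lay highest in the top libraries of both lists, with 8.74 in vehicle 3 and 7.80 in quercetin 2, and the part of fat in the muscle samples was not tested. In WAT the fatty acid list stood at 6.21, 5.48 and 5.89 with vehicle and 6.73, 6.90 and 7.60 with quercetin. WAT vehicle 2, the lowest there, had adipocyte markers at 4.76, against 8.18 to 10.18 in the other WAT libraries. The part of adipocyte content in the WAT values of both lists was not tested.

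**Figure D5:**
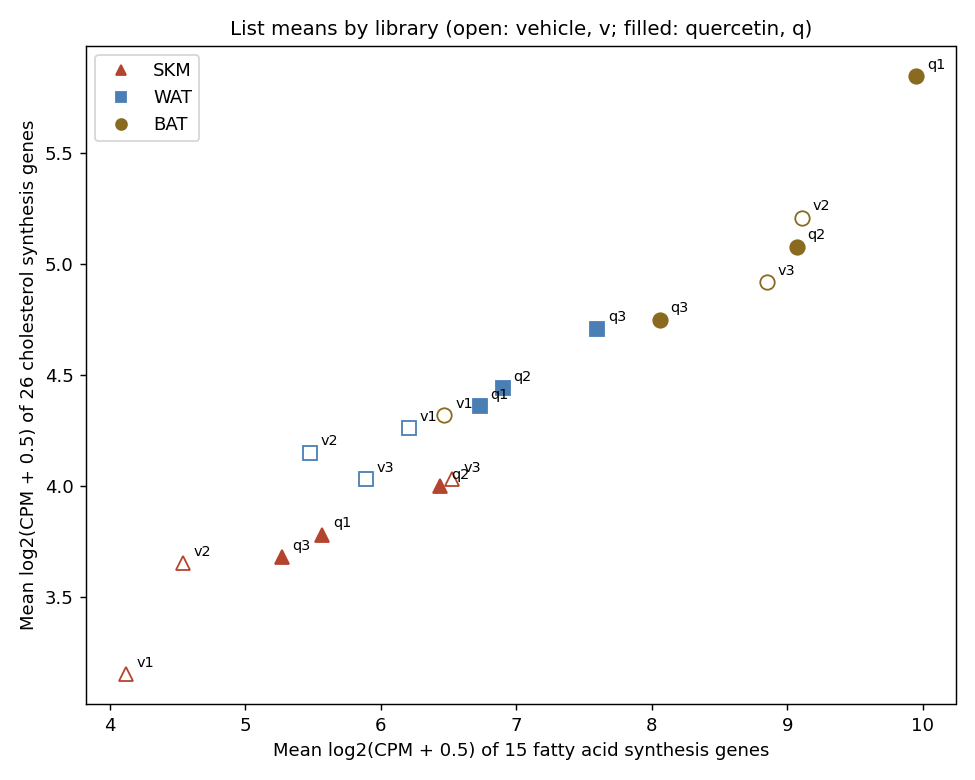
Mean log2(CPM + 0.5) of the 26 genes (vertical) against that of the 15 fatty acid synthesis genes (horizontal), with 1 point for each of the 18 libraries by tissue and treatment. BAT quercetin 1 is highest on both axes and SKM vehicle 1 lowest on both, and the 3 WAT quercetin points lie above and to the right of the 3 WAT vehicle points.

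Neighbouring genes of the pathway were taken from 4 further lists with 63 genes. No gene of them was called with quercetin by edgeR in any tissue, for the mean or for a difference between tissues. In WAT the smallest p among fatty acid genes belonged to Thrsp, a lipogenic nuclear protein, at 3.36 ± 0.63 on the log2 scale, and Pnpla3, a lipase induced by feeding, at 4.04 ± 0.82, both with an edgeR adjusted p of 1. Srebf1, which encodes SREBP1, gave 0.72 ± 0.76 and Tmem97, a sterol-regulated membrane protein, -0.47 ± 0.52. Abcg1, a cholesterol exporter and LXR target, gave -0.58 ± 0.28, Lipa, the lysosomal cholesteryl ester hydrolase, -1.44 ± 0.74, Coq2, of ubiquinone synthesis, 0.45 ± 0.23, and Nus1, of dolichol synthesis, -1.04 ± 0.58.

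Between tissues the counts of these lists stand beside the shares over all genes, 18.3% higher and 22% lower in BAT than in WAT, 13.9% and 13.3% in BAT than in SKM, and 28.6% and 21.7% in WAT than in SKM. Of 15 fatty acid genes, 10 were called higher in BAT than in WAT and 11 higher than in SKM, led by Acss2, an acetyl-CoA synthetase, at 3.39 ± 0.53 against WAT and Elovl6, a fatty acid elongase, at 5.99 ± 0.91 against SKM. Between WAT and SKM 3 were higher and 1 lower in WAT, with Mid1ip1, a regulator of acetyl-CoA carboxylase, at -1.43 ± 0.27. Of 13 genes of sterol accessory steps and SREBP processing, 3 were higher in BAT than in WAT, among them Cyb5b, a cytochrome b5 that passes electrons to sterol enzymes, at 1.29 ± 0.26. Against SKM 8 were higher and 1 lower in BAT, led by Erlin2, which helps degrade membrane proteins of the endoplasmic reticulum, at 1.53 ± 0.22. Between WAT and SKM 5 were higher and 2 lower in WAT, with Tmem97 at 1.92 ± 0.37. Of 12 genes of the isoprenoid branch, 5 were higher and 1 lower in BAT than in WAT, 1 was higher and 1 lower in BAT than in SKM, and 2 were higher and 6 lower in WAT than in SKM. Pdss2, of the ubiquinone side chain, had the smallest p of the list in the first and last of these, with 2.01 ± 0.27 and -2.06 ± 0.27. Of 23 genes of sterol transport, storage and LXR response, 2 were higher and 3 lower in BAT than in WAT, smaller shares than over all genes, with Vldlr, a lipoprotein receptor, at 3.30 ± 0.57 and Abcg1 at -1.87 ± 0.36. Against SKM 9 of them were higher and 3 lower in BAT, and 12 were higher and 5 lower in WAT, led by Abcg1 at 3.44 ± 0.39. All values in this paragraph are log2 fold changes ± SE called by edgeR at an adjusted p under 0.05.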

How the data were processed

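The deposited files hold raw gene counts by the authors, 1 for each Ensembl gene and library, without normalization. The tools named, per the submitters' processing notes, are HISAT2, HTSeq and DESeq2, and the build is mm10. No version, annotation release or strandedness is given in the sources used here. Per the labels' protocols RNA came from TRIzol and libraries from a NEBNext Ultra kit. Reads outside genes (2.53 to 9.11%) and reads shared by several genes (6.47 to 9.84%) stayed out of library sizes. Symbols, coordinates and exon lengths came from GENCODE M21 (GRCm38).

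Groups came from the labels alone. Replicates differed beyond sampling noise, with a chi-square of at least 27.03 per degree of freedom, so each was counted as its own sample. Genes were kept by filterByExpr (minimum count 10, minimum total 15), scaled by TMM and tested two-sided with glmQLFit and glmQLFTest of edgeR 4.0.16 (R 4.3.3). Quercetin was tested within each tissue, and the mean effect, its differences and the tissue contrasts in 1 fit of 18 libraries with 6 group means. P-values were adjusted by Benjamini-Hochberg over all genes tested, threshold 0.05, and intervals are 95%. Alternatives were DESeq2 1.42.0, limma 3.58.1 voom, other scaling, no filter, flow cell terms, replicate blocks and libraries left out. The code was tested on simulated data.

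The 26 genes and the other lists were chosen with earlier results of these data known. All 26 are named with levels. Fold changes are given for the 8 smallest p in each tissue contrast, 6 in each quercetin contrast, 3 in each difference, and always for Srebf2 and Insig1. Other lists show called genes, at most 4 a comparison, or the 2 smallest p in WAT.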

Additional observations from a re-analysis of the deposited data

How the results depend on the processing

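No alternative called a pathway gene with quercetin. With no filter on low counts edgeR called 20 genes higher and 12 lower in SKM, none of the pathway. The direction of the tissue medians held in all alternatives, and leaving out 1 library at a time gave 0.56 to 0.92 for BAT against WAT, 0.96 to 1.25 for BAT against SKM and 0.78 to 1.10 for WAT against SKM. Counts of called genes moved more. For BAT against WAT 11 were higher, and 2 with vehicle libraries only, 6 with quercetin libraries only and 8 to 13 without 1 library. The 3 called lower became 1 without SKM vehicle 3, SKM quercetin 2, WAT vehicle 2 and BAT quercetin 3, 1 with vehicle libraries only, 1 with quercetin libraries only and 1 to 3 without 1 library. For BAT against SKM 14 were higher, and 3 with vehicle libraries only. The 2 called lower became 1 with limma voom, 0 with no filter on low counts, 1 without the same 4 libraries, 0 with vehicle libraries only, 1 with quercetin libraries only and 1 to 2 without 1 library. For WAT against SKM 12 were higher, and 4 with vehicle libraries only, 6 with quercetin libraries only and 8 to 13 without 1 library, and the 3 called lower became 1 with vehicle libraries only. Fits of 1 treatment hold fewer samples, and elsewhere the cause was not tested.

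Deviations of same-numbered vehicle and quercetin libraries of a tissue correlated at -0.699 to 0.266, so the numbers do not pair the treatments. Across tissues same-numbered vehicle libraries correlated at 0.178 to 0.298 (SKM with WAT), 0.125 to 0.257 (SKM with BAT) and 0.053 to 0.187 (WAT with BAT). Differently numbered vehicle libraries correlated at -0.302 to 0.086, -0.293 to 0.123 and -0.186 to 0.095 in the same order. The ranges of WAT with BAT overlap and those of SKM with BAT nearly meet. Deviations from a group mean also depend on each other, so this is only a hint that same-numbered vehicle libraries share a mouse. Same-numbered quercetin libraries correlated at -0.136 to 0.149, so the fit without the block was kept. With the number as a replicate block the quercetin medians were 0.25 in SKM, 0.28 in WAT and 0.53 in BAT, again with 0 pathway genes called. With the title taken as the animal, the replicate block gave 9 genes higher and 3 lower in BAT than in WAT, 14 and 1 in BAT than in SKM, and 12 and 3 in WAT than in SKM, and Insig1 between BAT and WAT was 2.29 and not called (edgeR adjusted p = 0.0707).

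Some single estimates turned sign. Without 1 library at a time Insig1 ran from -0.31 to 1.91 in BAT, from 0.09 to 2.52 in WAT and from -0.55 to 0.33 in SKM, where it was also 0.05 and 0.09. Fdft1 ran from -2.17 to 0.24 in SKM. Srebf2 ran from -0.62 to 0.07 in WAT, from -0.05 to 0.42 in BAT and from -0.04 to 0.21 for the mean of the tissues. On the main flow cell alone Insig1 in SKM gave 0.09. For BAT minus SKM the median of the quercetin difference ran from -0.20 to 0.66 without 1 library. For WAT minus BAT it ran from -0.29 to 0.30, and for WAT minus SKM from -0.14 to 0.26.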
